A study of Mus musculus with 16 samples.

Results

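KLF1 is a zinc finger transcription factor of red cell precursors, and the KLF1-only intronic peaks are the places inside introns where it was found on chromatin but its Nan mutant form was not. They were chosen by 2 values of the authors' annotated peak lists: a genomic location of intron, and no overlap of 1 bp or more with any Nan-KLF1 peak. This rule took 1547 of the 1951 intronic KLF1 peaks, of 5326 KLF1 peaks in all and of 8084 peaks in the series, which also holds 2758 Nan-KLF1 peaks. The absence of a Nan-KLF1 peak is therefore the rule itself and not a finding about these peaks.

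The series holds 16 mouse samples of 3 kinds. Binding was measured by ChIP-seq (sequencing of DNA precipitated with an antibody, here against KLF1) in K1 cells, an erythroblast line that has no KLF1 of its own, carrying either KLF1 or Nan-KLF1 as a transgene fused to the oestrogen receptor (ER), named K1-ER and K1-NanER. Both lines were given 200 nM 4-hydroxytamoxifen for 3 h, which activates ER fusions, then fixed with 1% formaldehyde, and their chromatin was sheared to between 200 and 400 bp. Each factor has 1 ChIP and 1 input library, made from 3 pooled replicates, so no spread between replicates stands behind any peak. New transcription was measured in 2 libraries each of K1-ER (clones A and C), K1-NanER (clones B and X) and parental K1 cells, each given 200 nM 4-hydroxytamoxifen and, for 1 h, 500 uM of the RNA label 4-thiouridine (4sU). Polyadenylated RNA came from the total fetal liver of 3 Nan/+ and 3 wild-type (WT, +/+) embryos taken at embryonic day 14.5 and cleared of globin RNA. What the K1 comparisons can show is limited to a line without KLF1, to 2 clones per transgene and to an antibody shared by both factors. Of 8 genes typical of erythroblasts, 5 are listed in the 4sU table, with levels between 0.1 and 129 FPKM in K1 cells in the authors' deposited table. All 5 rose in K1-ER and 4 rose in K1-NanER by the authors' q, and the remaining one, the erythropoietin receptor gene Epor, was at 485 FPKM in K1-ER cells, 139 in K1-NanER cells and 129 in K1 cells in the authors' deposited table (q = 0.912 in K1-NanER). Klf1 itself was not analysed here, so the labels were not checked against it.

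KLF1 binds CACCC-type elements, which are rich in cytosine, in the promoters, introns and distal enhancers of erythroid genes, and it mostly acts as an activator of globin, heme synthesis, membrane and cell cycle genes. The Nan allele changes an amino acid in the second of its 3 zinc fingers, each of which reads a few bases of the element, and Nan/+ mice are anaemic. Introns of erythroid genes are a common place for enhancers that erythroid factors occupy.

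The peak lists give most peaks a central motif of 8 bases, in which the outer bases are fixed and the third to the fifth vary. Among the KLF1-only intronic peaks 18 such strings occurred, and 9 are shown here because they are the most frequent ones. Capitals mark the 3 bases that vary, and the strings are written as the lists give them.
motif 1: ccACGccc
motif 2: ccACAccc
motif 3: ccCCAccc
motif 4: ccCCGccc
motif 5: ccCCTccc
motif 6: ccACTccc
motif 7: ccCAGccc
motif 8: ccCTGccc
motif 9: ccCTTccc
A motif was given for 1254 of the 1547 KLF1-only intronic peaks, or 81.1% (95% Wilson interval 79.0 to 82.9). Of the 404 intronic KLF1 peaks that a Nan-KLF1 peak overlaps, called shared intronic peaks here, 315 had one, or 78.0% (73.7 to 81.7), and over all KLF1 peaks the share was 78.9%. Having a motif thus set both intronic groups little apart, and these intervals, like all others here, cover counting error only, since neighbouring peaks and peaks of 1 library are not independent samples.

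Which motif was present differed much more. The first string, ccACGccc, lay in 333 KLF1-only intronic peaks (21.5%) and in 45 shared intronic peaks (11.1%). The second, ccACAccc, lay in 240 KLF1-only intronic peaks (15.5%) against 6 shared intronic peaks (1.49%). Put the other way, 97.6% of the 246 intronic KLF1 peaks with ccACAccc were KLF1-only (94.8 to 98.9), above the 79.3% of all intronic KLF1 peaks (77.4 to 81.0). For ccCCAccc the counts were 162 KLF1-only and 27 shared intronic peaks, or 10.5% and 6.68%. The strings ccCTGccc and ccCAGccc leaned the other way. The first of them lay in 41 KLF1-only intronic peaks (2.65%) and 43 shared ones (10.6%), the other in 52 (3.36%) and 35 (8.66%), and 48.8% (38.4 to 59.3) of the intronic peaks with ccCTGccc were KLF1-only.

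Read base by base, all 3 varying positions differed between the intronic groups. Adenine stood at the third position in 54.1% of motif-bearing KLF1-only intronic peaks (51.3 to 56.8) and in 25.7% of shared intronic ones (21.2 to 30.8). Cytosine stood at the fourth in 82.5% (80.3 to 84.5) of the KLF1-only and 59.7% (54.2 to 65.0) of the shared intronic peaks. At the fifth, adenine made up 34.9% (32.3 to 37.6) against 14.6% (11.1 to 18.9). The 4 strings that have cytosine at the fourth and a purine at the fifth position, the form usually given for KLF1, accounted for 895 motifs or 71.4% (68.8 to 73.8) in KLF1-only intronic peaks and 143 or 45.4% (40.0 to 50.9) in shared ones. None of these interval pairs overlap.

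**Figure D1:**
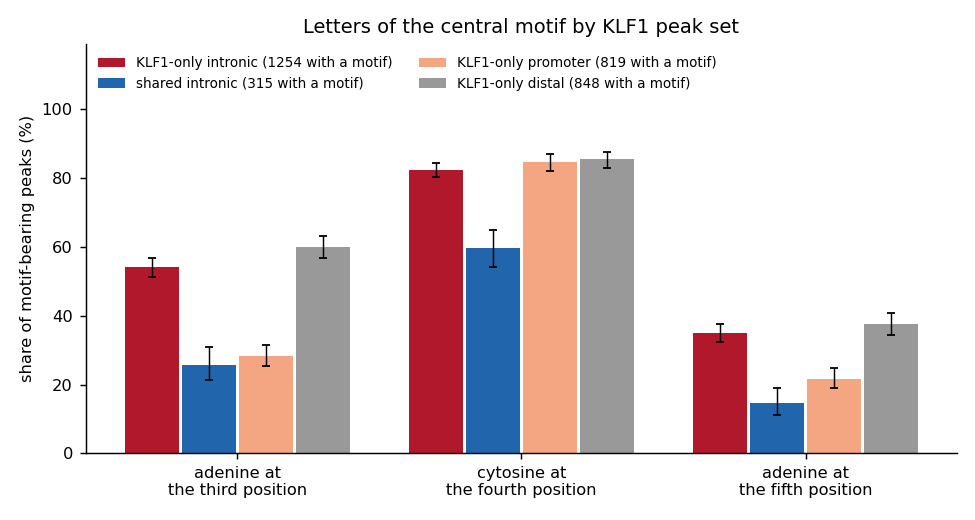
Share of motif-bearing peaks (%) with adenine at the third, cytosine at the fourth and adenine at the fifth motif position, for 4 sets of KLF1 peaks; bars are shares and error bars 95% Wilson intervals. KLF1-only intronic peaks lie above shared intronic peaks at all 3 positions (54.1%, 82.5% and 34.9% against 25.7%, 59.7% and 14.6%), while KLF1-only promoter peaks differ from them mainly at the third and the fifth.

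The comparison with other KLF1-only peaks separates 2 kinds of difference. Cytosine at the fourth position stood in 82.5% of KLF1-only intronic motifs (80.3 to 84.5), and the intervals of KLF1-only promoter (84.6%, 82.0 to 86.9) and KLF1-only distal peaks (85.5%, 83.0 to 87.7) overlapped with it. Adenine at the third position differed: it stood in 54.1% of KLF1-only intronic and 60.0% of KLF1-only distal peaks (56.7 to 63.3), but in 28.3% of KLF1-only promoter peaks (25.3 to 31.5). Adenine at the fifth behaved in the same way, with 34.9% of intronic, 37.5% of distal (34.3 to 40.8) and 21.7% of promoter peaks (19.0 to 24.7). The base composition around the peaks was not measured. In the opposite set, the 629 intronic Nan-KLF1 peaks without a KLF1 peak, cytosine stood at the fourth position in 32.4% (28.1 to 37.0) of the motifs and ccACAccc occurred in 4 peaks, or 0.636%.

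Peak height is given as the authors' fold enrichment of ChIP over input, and no peak in the list lies under 30.0. KLF1-only intronic peaks had a median fold of 69.1, with quartiles of 49.3 and 104, and ran up to 804. Shared intronic peaks were taller, with a median of 105 and quartiles of 58.7 and 189, and wider, at a median of 799 bp against 598 bp in KLF1-only intronic peaks. The medians of KLF1-only promoter and distal peaks were 75.6 and 65.4, and that of all other KLF1 peaks 78.9. Sorted into 4 groups of rising fold, the intronic KLF1 peaks were KLF1-only in 85.6%, 88.1%, 81.6% and 61.9% of cases, with the lowest share in the tallest group, at a fold of 116 and above.

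**Figure D2:**
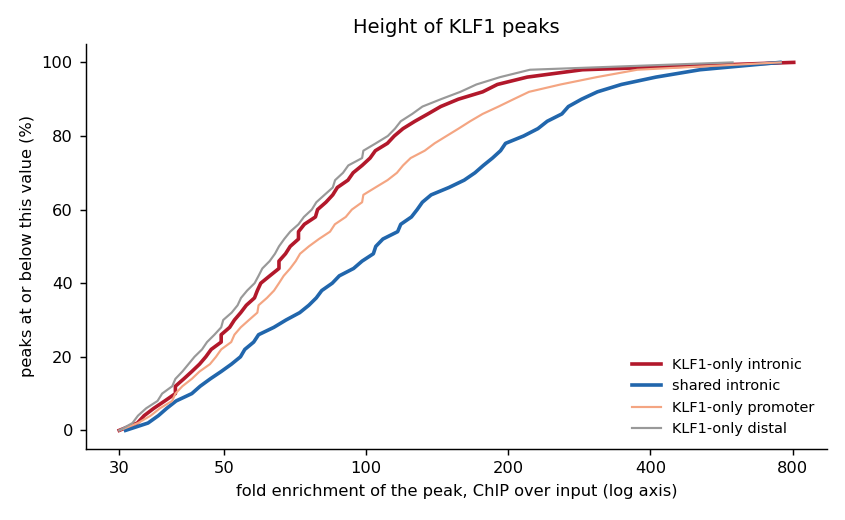
Cumulative share of peaks (%) at or below each fold enrichment of ChIP over input (log axis) for KLF1-only intronic, shared intronic, KLF1-only promoter and KLF1-only distal peaks. The curve of KLF1-only intronic peaks crosses 50% at a fold of 69.1 and that of shared intronic peaks at 105.

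Since height and the absence of a Nan-KLF1 peak went together, the motifs were compared again within each height group. From the lowest to the tallest group, adenine at the third position stood in between 48.6% and 57.1% of KLF1-only intronic motifs and in between 24.1% and 27.9% of shared intronic ones. For cytosine at the fourth position the shares, in the same order, were 78.8%, 87.0%, 81.5% and 82.4% in KLF1-only and 53.7%, 48.8%, 54.0% and 67.1% in shared intronic peaks. The gap at these 2 positions was thus present at every height, and the intervals overlapped in none of the 4 groups. Adenine at the fifth position was less even, since in the lowest group its intervals overlapped, with 33.0% (28.1 to 38.3) of KLF1-only and 24.1% (14.6 to 36.9) of shared intronic peaks. The string ccACAccc stood in 17.8%, 22.2%, 20.3% and 15.3% of motif-bearing KLF1-only intronic peaks and in 1.85%, 2.33%, 1.59% and 1.94% of shared ones. Within KLF1-only intronic peaks the motif itself moved the height little: the median fold was 71.8 with a motif and 64.1 without, and the 9 strings shown had medians between 65.4 and 76.3.

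**Figure D3:**
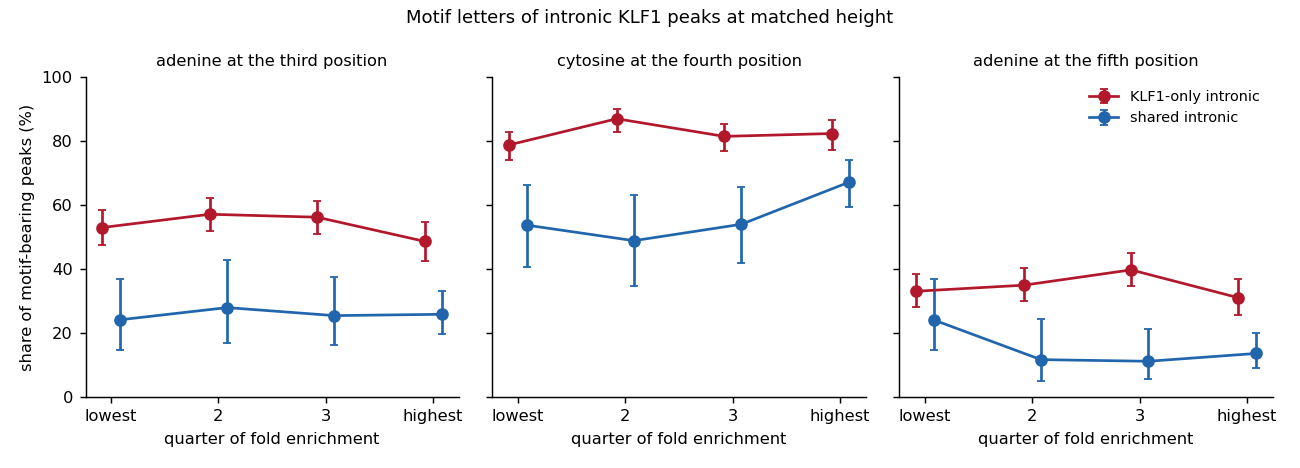
Share of motif-bearing intronic KLF1 peaks (%) with adenine at the third, cytosine at the fourth and adenine at the fifth position, in 4 groups of fold enrichment from lowest to highest; points are shares and error bars 95% Wilson intervals. KLF1-only intronic peaks lie above shared intronic peaks in every group, by the smallest margin for the fifth position in the lowest group (33.0% against 24.1%).

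The rule fixes that no KLF1-only intronic peak touches a Nan-KLF1 peak. Their distances to Nan-KLF1 peaks are given as a description only, since those of other KLF1 peaks were not measured. The gap to the nearest one had a median of 99716 bp and quartiles of 27069 and 323911 bp, and 1 peak had none on its chromosome. Of the 1547, 32 (2.07%) had a Nan-KLF1 peak within 1000 bp. The members nearest to the limit of the rule were a peak at Clstn3 (chr6:124401854-124402448, build mm9), 49 bp from a Nan-KLF1 peak with a fold of 43.1, and one at Ankrd40 (chr11:94189986-94190735), 83 bp away with a fold of 111. Just inside a Nan-KLF1 peak, and so not members, lay a peak at Gm10818 (chr16:32672028-32672620) with an overlap of 44 bp and a fold of 87.3, and one at Atp9a (chr2:168533756-168533989) with an overlap of 196 bp and a fold of 55.3. The authors' own intersection of both lists held 260 of the 404 shared intronic peaks. It held none of the 1547, which the rule fixes for any intersection made by overlap.

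The tallest KLF1-only intronic peak, at Dennd6a (chr14:27398724-27399820), reached a fold of 804 with the string ccACGccc, and ranked at 9 among all 5326 KLF1 peaks. It was followed by a peak at Gm12216 (chr11:53670776-53671409) with a fold of 785 and ccCCAccc, and by one at Arhgap29 (chr3:121670352-121671217), with a fold of 662 and ccCAGccc. Abhd5, Ggnbp2, Hnrnpr, Setd4 and Ing1 were among the next, with folds between 428 and 562. Arhgap29 was at 12.0 FPKM in K1-ER cells, 10.1 in K1-NanER cells and 2.46 in K1 cells in the authors' deposited table and rose in both. Ing1, a chromatin reader, was at 31.3 FPKM in K1-ER cells, 20.4 in K1-NanER cells and 13.4 in K1 cells in the authors' deposited table and rose in K1-ER (q = 0.0127), without passing in K1-NanER (q = 0.365). At the other end of the list, a peak at Tpst1 (chr5:130560842-130561309) had the lowest fold of all, 30.0.

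The authors' lists assign each peak the nearest gene within 300 kb, and 1296 genes were assigned to KLF1-only intronic peaks. Of these, 1145 had 1 such peak, 129 had 2, 20 had 3 and 2 had 4, while 76 peaks had no gene. The 1296 include the entries of 8 peaks that carried a number in place of a name. For 800 genes (61.7%) the KLF1-only intronic peaks were the whole record, with no other peak of either factor. Another KLF1 peak was assigned to 412 genes (31.8%), a KLF1 promoter peak to 214 (16.5%), and a Nan-KLF1 peak elsewhere to 288 (22.2%). The matching shares for genes of other KLF1 peaks were not counted. The genes with 4 such peaks were Rai1 (folds of 32.9, 219, 183 and 83.9) and Epb4.9, the gene of dematin, which bundles actin in the red cell membrane skeleton. The Epb4.9 peaks spanned chr14:71017464-71024914 with folds of 36.5, 45.8, 137 and 153, and the tallest carried ccCCAccc. An assigned gene need not be the gene whose intron holds the peak: where the locus was known from the expression tables, 315 of 342 summits (92.1%) lay inside it, at a median of 3937 bp from its nearer end, and 27 lay outside.

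The expression tables give 1 level per gene and group in FPKM (fragments per kilobase of transcript after scaling for library size), without replicate values, and the authors' own q value for each comparison. A gene is said to have risen or fallen here when that q was at most 0.05. Both tables hold selected genes: each of the 237 genes of the 4sU table that have a KLF1-only intronic peak had passed in K1-ER or in K1-NanER, and every gene of the liver table had passed there. There are 1556 genes in the 4sU table and 793 genes in that of the liver, and 284 of the 1296 assigned genes are in 1 or both (237 in the first, 68 in the second, 21 in both). Counts are therefore read against the other genes of the same table, and the remaining 1012 genes, which neither table lists, have no measured change here.

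New transcription of genes with a KLF1-only intronic peak was mostly higher in K1-ER than in K1 cells. Of the 237 genes, 144 rose (60.8%, 54.4 to 66.8) and 13 fell (5.49%), against 37.9% and 11.5% over all 1556 genes of the table. Their median log2 fold change was 1.22, against 0.72 over the whole table. Among the 843 genes with no KLF1 peak of any kind 170 rose (20.2%) and 147 fell. Genes with a shared intronic peak and no KLF1-only one rose in 39 of 61 cases (63.9%, 51.4 to 74.8), and those with a KLF1-only promoter peak and no KLF1-only intronic one in 106 of 184 (57.6%, 50.4 to 64.5), so that the share among genes with a KLF1-only intronic peak lay within the intervals of both.

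The count differed with what else was bound at the gene. Of the 79 genes that had a KLF1 promoter peak as well, 60 rose (75.9%, 65.5 to 84.0), and of the 92 with a Nan-KLF1 peak elsewhere at the gene, 72 rose (78.3%, 68.8 to 85.5). Of the 86 genes with no other peak of either factor 35 rose (40.7%, 30.9 to 51.3) and 9 fell (10.5%), near the shares over the whole table and above the risen share of the 843 genes with no KLF1 peak (20.2%, 17.6 to 23.0, with 17.4% that fell). Peak height and motif set the genes less apart: 43 of 61 rose (70.5%) with a peak in the tallest group and 45 of 71 (63.4%) with one in the lowest, and 30 of 53 (56.6%) rose with a motif-free peak.

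Longer genes offer more intron, and the genes with a KLF1-only intronic peak were longer, with a median locus of 25240 bp against 17815 bp over the 4sU table. Within 5 bins of locus length, from short to long, 83.3%, 72.7%, 62.3%, 61.5% and 44.8% of the genes with a KLF1-only intronic peak rose in K1-ER, against 42.0%, 36.0%, 34.8%, 27.0% and 27.5% of the genes without one. The share was higher in every bin, and in both sets of genes it was lower in the longest bin than in the shortest.

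In K1-NanER cells the risen share of the same genes was close to that of the table. Of the 237 genes 116 rose (48.9%, 42.6 to 55.3) and 36 fell (15.2%, 11.2 to 20.3), against 47.4% and 28.3% over all 1556 genes, with a median log2 fold change of 1.09 against 1.04. The fallen share of the 237 was lower than that of the table, as it was for genes with a KLF1-only promoter peak and no KLF1-only intronic one (25 of 184). It was not lower where the KLF1-only intronic peak stood alone: of the 86 genes with no other peak of either factor 41 rose (47.7%) and 24 fell (27.9%, 19.5 to 38.2). From the shortest to the longest length bin, 29.2%, 33.3%, 36.1%, 59.6% and 67.2% of the genes with a KLF1-only intronic peak rose. Among the genes without one, 26.4%, 36.3%, 44.0%, 61.8% and 71.3% rose, so the first set was higher in the shortest bin alone. The fallen shares, in the same order, were 8.33%, 21.2%, 23.0%, 11.5% and 10.4% with such a peak and 42.4%, 37.8%, 35.6%, 21.6% and 13.5% without. The K1-ER and K1-NanER comparisons use the same K1 libraries, and no test of K1-NanER against K1-ER was run, so their values are only set side by side.

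**Figure D4:**
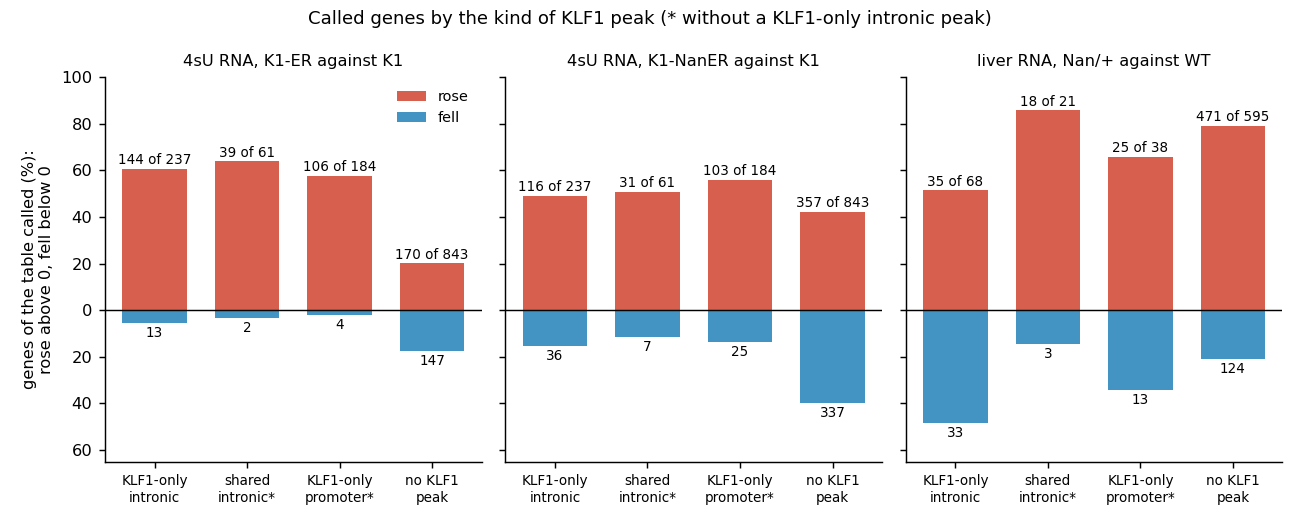
Share of listed genes (%) that rose (above 0) or fell (below 0) at the authors' q of at most 0.05, in K1-ER against K1, K1-NanER against K1 and Nan/+ against WT liver, by the kind of KLF1 peak at the gene; numbers are genes and a star marks sets without a KLF1-only intronic peak. Of the genes with a KLF1-only intronic peak 144 of 237 rose in K1-ER cells, 116 of 237 in K1-NanER cells and 35 of 68 in Nan/+ liver.

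The gene lists that follow are small, and their counts are given with those of each list as a whole; of all genes in the 4sU table, 37.9% rose and 11.5% fell in K1-ER, and 47.4% rose and 28.3% fell in K1-NanER. Heme synthesis and iron handling were represented by 8 of the 25 genes of that list, among them Abcb10, Alad, Blvrb, Glrx5, Slc11a2, Slc25a38 and Uros. Of the 6 that the 4sU table holds, 5 rose in K1-ER and 0 fell, while in K1-NanER 0 rose and 1 fell. Alad, the second enzyme of the heme pathway, stood at 54.2 FPKM in K1-ER cells, 7.34 in K1-NanER cells and 6.51 in K1 cells in the authors' deposited table, a log2 fold change of 3.06 for K1-ER (q = 0.00213) and 0.17 for K1-NanER (q = 0.886). Its KLF1-only intronic peak (chr4:62177089-62178449) had a fold of 132 and the string ccACAccc. The K1-NanER level of Alad sat beside its K1 level. A Nan-KLF1 peak elsewhere was also assigned to Alad. Of the list genes named here that rose in K1-ER alone, the same was true of Abcb10, Gypc, Rhd, Ldb1, Zbtb7a, E2f2, Ccnd3 and Klf13. None was assigned to Slc25a38, Glrx5 or Atf4.

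Slc25a38, which carries glycine into mitochondria for heme synthesis, had 3 KLF1-only intronic peaks between chr9:120019086 and 120025838, with folds of 208, 110 and 222, of which the first carried ccCCGccc. In the authors' deposited table it stood at 208 FPKM in K1-ER cells, 67.7 in K1-NanER cells and 59.4 in K1 cells, with a log2 fold change of 1.81 for K1-ER (q = 0.00213) and 0.19 for K1-NanER (q = 0.838). Abcb10, a mitochondrial transporter that erythroid heme synthesis needs, had 364 FPKM in K1-ER cells, 222 in K1-NanER cells and 104 in K1 cells in the authors' deposited table, and passed in K1-ER (q = 0.00381) but not in K1-NanER (q = 0.0578). Glrx5, which helps assemble iron-sulfur clusters, lay at 209 FPKM in K1-ER cells, 61.1 in K1-NanER cells and 107 in K1 cells in the authors' deposited table, just past the threshold in K1-ER (q = 0.0487) and not past it in K1-NanER (q = 0.173). Blvrb, a biliverdin reductase with 2 such peaks, fell in K1-NanER with a log2 fold change of -1.70 (q = 0.00213), and its levels were 81.2 FPKM in K1-ER cells, 36.3 in K1-NanER cells and 118 in K1 cells in the authors' deposited table. Over the whole list, with or without a KLF1-only intronic peak, 9 of 13 listed genes rose in K1-ER, and in K1-NanER 2 rose and 4 fell.

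Of the 38 genes on the list of red cell membrane and cytoskeleton proteins, 12 had a KLF1-only intronic peak, among them Add1, Add3, Ank1, Epb4.9, Gypc, Rhd, Sptb, Tmod3, Tpm3, Tspan33 and Xk. Among them 5 are listed in the 4sU table, of which 4 rose and 0 fell in K1-ER, while 2 rose and 1 fell in K1-NanER. With or without such a peak, 9 of the 11 listed genes of this group rose and 0 fell in K1-ER, and 6 rose and 1 fell in K1-NanER. Epb4.9 was at 8.54 FPKM in K1-ER and 3.47 in K1-NanER and, in K1, at 0.1 FPKM in the authors' deposited table, a value that 138 of its 4668 levels share, so no fold is given. Gypc, a glycophorin that anchors the membrane skeleton, had 42.2 FPKM in K1-ER cells, 21.2 in K1-NanER cells and 12.5 in K1 cells in the authors' deposited table, with a log2 fold change of 1.75 for K1-ER (q = 0.00213) and 0.76 for K1-NanER (q = 0.250). Rhd, a blood group protein, had 35.0 FPKM in K1-ER cells, 14.9 in K1-NanER cells and 14.8 in K1 cells in the authors' deposited table (q = 0.0337 in K1-ER, 0.994 in K1-NanER). Tmod3, which caps actin filaments, was higher in both, at 68.2 FPKM in K1-ER and 87.5 in K1-NanER against 29.0 in K1 cells in the authors' deposited table. The 7 without a row in that table include Sptb, the erythroid beta spectrin, with a peak of fold 57.6 and Add3, an adducin, with folds of 386 and 91.5. Ank1, the ankyrin that links spectrin to the membrane, did not pass in K1-ER (33.7 FPKM, against 38.6 in K1, q = 0.836) and fell in K1-NanER (16.5 FPKM, q = 0.00381) in the authors' deposited table.

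Of 36 erythroid transcription and signalling genes, 11 had a KLF1-only intronic peak, and the 4 in the 4sU table, Nfe2, Ldb1, Zbtb7a and Cbfa2t3, all rose in K1-ER, while 2 of them rose in K1-NanER. The whole list has 12 genes in that table, of which 11 rose in K1-ER and 5 in K1-NanER. Nfe2, a subunit of the erythroid factor NF-E2, stood at 148 FPKM in K1-ER cells, 30.5 in K1-NanER cells and 8.07 in K1 cells in the authors' deposited table, and passed in both (q = 0.00213 and 0.00381). Its peak (chr15:103083047-103083664) had a fold of 69.9, the string ccCCAccc and a Nan-KLF1 peak 710 bp away. Ldb1, which joins enhancers to promoters in a complex with GATA1 and TAL1, had 149.5 FPKM in K1-ER cells, 63.0 in K1-NanER cells and 44.9 in K1 cells in the authors' deposited table (q = 0.00213 in K1-ER, 0.446 in K1-NanER). Zbtb7a, a repressor of fetal globin genes in human cells, had 515 FPKM in K1-ER cells, 242 in K1-NanER cells and 107 in K1 cells in the authors' deposited table, where only K1-ER passed (q = 0.00804 against 0.0657). Cbfa2t3, the corepressor ETO2, had 9.42 FPKM in K1-ER cells, 5.72 in K1-NanER cells and 1.86 in K1 cells in the authors' deposited table and rose in both. The other members of this list with such a peak, Bach1, Foxo3, Gfi1b, Ikzf1, Lyl1, Runx1 and Stat5a, have no row in the 4sU table. Of their peaks, those at Foxo3 had folds of 192 and 68.0, those at Runx1 79.7 and 51.2, and that at Stat5a 74.0.

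A KLF1-only intronic peak was assigned to 6 of the 35 cell cycle genes, and the 3 in the 4sU table rose in K1-ER, while 1 of them rose in K1-NanER. Of the 10 cell cycle genes that table holds, 5 rose and 1 fell in K1-ER, and 6 rose and 0 fell in K1-NanER. E2f2, an activator of S-phase genes, had 2 such peaks (chr4:135730554-135731174 and chr4:135737183-135737581) with folds of 189 and 81.4. It was at 151 FPKM in K1-ER cells, 26.0 in K1-NanER cells and 43.4 in K1 cells in the authors' deposited table, a log2 fold change of 1.79 for K1-ER (q = 0.00213) and -0.74 for K1-NanER (q = 0.173). Ccnd3, cyclin D3, had 278 FPKM in K1-ER cells, 64.8 in K1-NanER cells and 36.0 in K1 cells in the authors' deposited table (q = 0.00213 in K1-ER, 0.365 in K1-NanER). Cdkn1a, the cell cycle inhibitor p21, rose in both, at 51.3 FPKM in K1-ER and 32.5 in K1-NanER against 4.82 in K1 cells in the authors' deposited table. Its intronic peak (chr17:29231122-29232266, fold 82.2, no motif) lay 365 bp from a Nan-KLF1 peak. The other 3, E2f3, Mnt and Rbl1, have no row in the 4sU table.

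The apoptosis and p53 list held 6 genes with such a peak among 32. Of the 5 that the 4sU table lists, 4 rose in K1-ER and 4 in K1-NanER, with 0 that fell. Over the whole list 8 of 16 rose and 1 fell in K1-ER, and 7 rose and 4 fell in K1-NanER. Bbc3, the death protein PUMA, had 362 FPKM in K1-ER cells, 95.5 in K1-NanER cells and 34.4 in K1 cells in the authors' deposited table (q = 0.00213 in both). Sesn1, a p53 target that restrains mTORC1, had 12.2 FPKM in K1-ER cells, 20.2 in K1-NanER cells and 3.54 in K1 cells in the authors' deposited table. Trp53inp1, another p53 target, rose in K1-NanER alone by the authors' q, at 1.69 FPKM in K1-ER cells, 6.39 in K1-NanER cells and 1.19 in K1 cells in the authors' deposited table. Trp53i13, a p53-induced gene, had 44.8 FPKM in K1-ER cells, 50.2 in K1-NanER cells and 1.70 in K1 cells in the authors' deposited table (q = 0.00381 in both). Its intronic peak lay 293 bp from a Nan-KLF1 peak, which was not assigned to Trp53i13. Atf4, a stress response factor, rose in K1-ER (q = 0.0386) and did not pass in K1-NanER (q = 0.142).

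Of the KLF and Sp factors 1 of 23 had such a peak, of the autophagy genes 4 of 20 and of the small GTPases and their regulators 2 of 27, and of these genes with a peak the 4sU table holds 1 KLF factor and 1 autophagy gene, where it holds 9 and 4 genes of the whole lists. Klf13, of the KLF family, rose in K1-ER at 172 FPKM, with 88.1 in K1-NanER and 55.1 in K1 cells in the authors' deposited table. Bnip3l, which clears mitochondria from maturing red cells, rose in K1-NanER at 15.9 FPKM, with 10.4 in K1-ER and 6.84 in K1 cells in the authors' deposited table. None of the 9 genes of the globin list, of the 25 immediate early genes or of the 20 interferon response genes had a KLF1-only intronic peak. The same was true of the granulocyte, macrophage, hepatocyte, mast cell and muscle marker lists, while of the 15 megakaryocyte markers 1 had one, Itga2b, with a fold of 69.1. A KLF1 peak of any kind was assigned to 2 globin, 9 immediate early, 3 granulocyte, 1 hepatocyte and 2 megakaryocyte genes. The interferon, macrophage, mast cell and muscle lists had 0. Such a peak was assigned to 16 of 25 heme and iron, 21 of 38 membrane and 22 of 36 erythroid genes. The counts were 22 of 35 for the cell cycle and 16 of 32 for apoptosis. They were 8 of 23 for KLF and Sp factors, 10 of 20 for autophagy and 10 of 27 for small GTPases. The share of all genes with a KLF1-only intronic peak, or with any KLF1 peak, was not computed. No list count, 0 included, is therefore read as high or low.

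Outside these lists, and leaving aside genes at 0.1 FPKM in K1, the largest rises in K1-ER were in Clcn2 and Cercam. Clcn2, a chloride channel gene, was at 37.7 FPKM in K1-ER cells, 15.9 in K1-NanER cells and 0.839 in K1 cells in the authors' deposited table, with log2 fold changes of 5.49 and 4.25 (q = 0.00213 in both). Cercam was at 34.3 FPKM in K1-ER cells, 14.9 in K1-NanER cells and 1.26 in K1 cells in the authors' deposited table, and its peak (chr2:29724447-29726100) carried ccACAccc at a fold of 102. Lmna, the gene of lamins A and C in the nuclear envelope, had 3 KLF1-only intronic peaks and reached 865 FPKM in K1-ER, with 262 in K1-NanER cells and 138 in K1 cells in the authors' deposited table (q = 0.00213 in K1-ER, 0.121 in K1-NanER). A Nan-KLF1 peak elsewhere was assigned to Lmna as well. Lrrc4b, a synaptic adhesion gene, was at 12.5 FPKM in K1-ER cells, 0.411 in K1-NanER cells and 0.593 in K1 cells in the authors' deposited table (q = 0.0271 in K1-ER, 1.00 in K1-NanER). Casz1, a zinc finger gene with 3 such peaks, was at 78.1 FPKM in K1-ER cells, 35.1 in K1-NanER cells and 14.3 in K1 cells in the authors' deposited table and rose in both. Nfic, a nuclear factor I gene with 3 such peaks, was at 8.99 FPKM in K1-ER cells, 7.70 in K1-NanER cells and 2.71 in K1 cells in the authors' deposited table and also rose in both. Both genes with 3 peaks at which K1-ER did not pass, Atf1 and Tnrc6b, rose in K1-NanER (q = 0.0441 and 0.0337). The selection of listed genes fixed that they passed there, and only the direction was open. Myl7 was at 5.48 FPKM in K1-ER and at 0.1 FPKM in both K1-NanER and K1 in the authors' deposited table.

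Among the largest rises in K1-NanER were Azin1 and Btg2, whose level there was above both others. Azin1, which protects ornithine decarboxylase from breakdown, was at 25.6 FPKM in K1-ER cells, 124 in K1-NanER cells and 6.46 in K1 cells in the authors' deposited table, though the summit of its 1 peak lay outside its locus. Btg2, an antiproliferative gene, was at 337 FPKM in K1-ER cells, 488 in K1-NanER cells and 27.0 in K1 cells in the authors' deposited table (q = 0.00213 in both). Both genes also had a KLF1 promoter peak and a Nan-KLF1 peak. Falls were fewer: Slc1a3, a glutamate transporter with 2 KLF1-only intronic peaks, was at 5.13 FPKM in K1-ER cells, 10.6 in K1-NanER cells and 21.8 in K1 cells in the authors' deposited table and fell in both (q = 0.00213 and 0.0351). Ptgr1, a prostaglandin reductase, was at 25.3 FPKM in K1-ER cells, 17.9 in K1-NanER cells and 68.3 in K1 cells in the authors' deposited table and also fell in both. Txn1, thioredoxin, was at 27.0 FPKM in K1-ER cells, 11.5 in K1-NanER cells and 39.0 in K1 cells in the authors' deposited table and fell in K1-NanER alone by the authors' q (0.511 in K1-ER, 0.00669 in K1-NanER). Hsd17b14 was at 0.1 FPKM in K1-ER cells, 0.0418 in K1-NanER cells and 1.96 in K1 cells in the authors' deposited table (q = 0.00213 in K1-ER, 0.533 in K1-NanER), and the summit of its peak lay outside its locus.

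**Figure D5:**
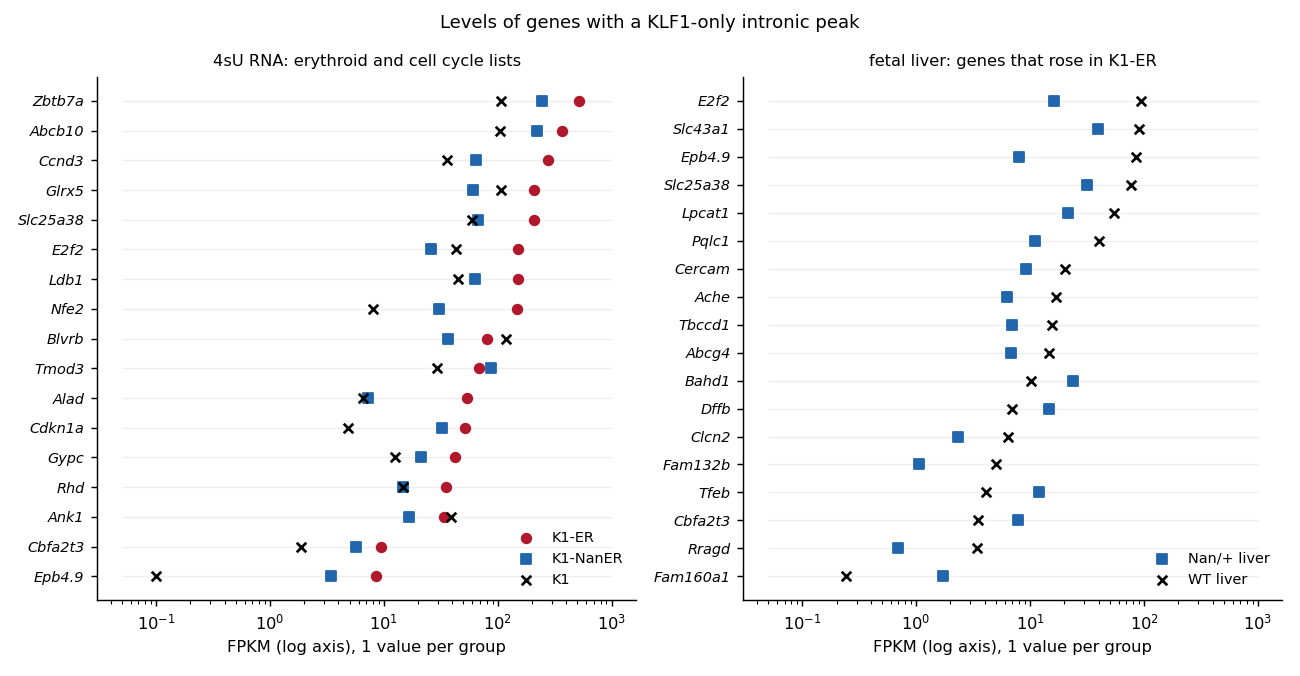
Levels in FPKM (log axis, 1 value per group) of genes with a KLF1-only intronic peak: on the left genes of the heme, membrane, erythroid and cell cycle lists in 4sU RNA of 3 cell lines, on the right the genes that rose in K1-ER and are listed in liver, in Nan/+ and WT liver. On the left the K1-NanER level of Alad, Slc25a38 and Rhd sits beside the K1 level, and on the right 13 of 18 genes are lower in Nan/+ liver.

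In fetal liver, 68 genes with a KLF1-only intronic peak are listed, of which 35 rose in Nan/+ livers (51.5%, 39.8 to 62.9) and 33 fell (48.5%, 37.1 to 60.2). Over all 793 genes of the table the shares were 75.4% and 24.6%, and among its 595 genes without a KLF1 peak 471 rose and 124 fell. A fall in Nan/+ liver was thus more frequent among genes with a KLF1-only intronic peak than in the table at large. Of the 48 genes with a KLF1-only distal peak, with or without an intronic one, 19 fell (39.6%, 27.0 to 53.7). Of the 38 with a KLF1-only promoter peak and no KLF1-only intronic one 13 fell (34.2%, 21.2 to 50.1), an interval that holds the 24.6% of the table. Both intervals overlapped that of the genes with a KLF1-only intronic peak, so the difference was not particular to introns. Genes with a shared intronic peak and no KLF1-only one had 18 that rose and 3 that fell, the fallen share being 14.3% (4.98 to 34.6). A bulk sample cannot tell fewer cells of a type from less RNA per cell. Markers of other blood cells moved in the same comparison: 11 of 15 granulocyte markers are listed and all 11 rose, summing to 2861 FPKM in Nan/+ and 487 FPKM in WT livers, as did 6 of 14 mast cell and basophil markers (165 against 49.1 FPKM), 4 of 15 macrophage markers (352 against 149.5 FPKM) and 3 of 15 megakaryocyte markers (666 against 265 FPKM), while the 1 listed of 15 hepatocyte markers rose as well (41.5 against 1.08 FPKM), in the authors' deposited table. All 6 listed markers of skeletal muscle fell, summing to 1.75 FPKM in Nan/+ and 43.5 FPKM in WT livers in the authors' deposited table. Of these listed markers none was at 0 in either group, and their part in the result was not tested.

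Within the liver table the height of the peak went with the direction. Of the 19 genes with a KLF1-only intronic peak in the tallest group 5 rose and 14 fell (73.7%, 51.2 to 88.2), while of the 19 with one in the lowest group 15 rose and 4 fell (21.1%, 8.51 to 43.3), near the 24.6% of the whole table. Of 21 genes whose peak held a motif with cytosine at the fourth and adenine at the fifth position 7 rose and 14 fell (66.7%, 45.4 to 82.8). Genes that also had a Nan-KLF1 peak rose in 12 of 16 cases, close to the 75.4% of the whole table, and those without one rose in 23 of 52 (44.2%) and fell in 29. Locus length, with a median of 23838 bp for the genes with a KLF1-only intronic peak and 10147 bp over the table, moved with direction too. The 21 genes with cytosine and adenine in the motif had a median locus of 39183 bp. It was 33865 bp in the tallest group and 23957 bp in the lowest. How far length enters these counts was not tested. The longest of the 5 length bins began at 37646 bp. In the shortest of 5 length bins 1 of 3 genes with such a peak fell and in the second 1 of 7, against 7.69% and 9.27% of genes without one. In the 3 longest the fallen shares were 53.8%, 47.4% and 57.7% with such a peak and 16.4%, 30.2% and 52.6% without, so that the longest bin and the second showed little difference.

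Joining both tables, 21 genes with a KLF1-only intronic peak were listed in cells and in liver. Of the 18 that rose in K1-ER, 13 fell in Nan/+ liver (72.2%, 49.1 to 87.5), against 12 of 46 (26.1%, 15.6 to 40.3) among genes without such a peak. Of the 13, the 9 that had not passed in K1-NanER were Abcg4, Ache, E2f2, Fam132b, Lpcat1, Pqlc1, Slc25a38, Slc43a1 and Tbccd1. The other 4, Cercam, Clcn2, Epb4.9 and Rragd, had risen there as well. In the whole set, 79 of the 144 genes that rose in K1-ER did not pass in K1-NanER. Nor did 3 of the 5 genes that rose in K1-ER and in liver. The same share among all 589 genes of the 4sU table that rose in K1-ER was not counted. The 79 are therefore not read as a trait of genes with a KLF1-only intronic peak. Epb4.9 fell the most, to 7.98 FPKM in Nan/+ livers, against 84.8 FPKM in WT livers, a log2 fold change of -3.41 (q = 0.00244) in the authors' deposited table. E2f2 was at 16.1 FPKM in Nan/+ and 94.3 FPKM in WT livers in the authors' deposited table, a log2 fold change of -2.55 (q = 0.00244). Fam132b encodes erythroferrone, the erythroblast hormone that lowers hepcidin, and was at 1.06 FPKM in Nan/+ and 4.99 FPKM in WT livers in the authors' deposited table (log2 fold change -2.24, q = 0.00244). In cells its levels were 22.1 FPKM in K1-ER cells, 5.14 in K1-NanER cells and 7.18 in K1 cells in the authors' deposited table, and its peak (chr1:93263211-93263957) carried ccACAccc at a fold of 104. Slc25a38 was at 31.7 FPKM in Nan/+ and 76.1 FPKM in WT livers in the authors' deposited table, with a log2 fold change of -1.26 (q = 0.00244). Rragd, a GTPase that signals amino acid supply to mTORC1, was at 0.690 FPKM in Nan/+ and 3.45 FPKM in WT livers in the authors' deposited table.

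The 5 genes that rose in K1-ER and also in Nan/+ liver were Bahd1, Cbfa2t3, Dffb, Fam160a1 and Tfeb. Cbfa2t3 was at 7.78 FPKM in Nan/+ and 3.50 FPKM in WT livers in the authors' deposited table, a log2 fold change of 1.15 (q = 0.00611). Dffb, the nuclease that cuts DNA in dying cells, was at 14.7 FPKM in Nan/+ and 6.96 FPKM in WT livers in the authors' deposited table (q = 0.0165). Only Fam53b fell in all 3 comparisons, with 8.04 FPKM in Nan/+ and 17.2 FPKM in WT livers in the authors' deposited table. Gm13826 fell in K1-ER and K1-NanER and rose in liver, at 88.5 FPKM in Nan/+ and 19.9 FPKM in WT livers in the authors' deposited table, but none of its 3 peak summits lay inside its locus.

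Other large liver changes were in genes that the 4sU table does not list. Gfap, an intermediate filament gene, was at 2.37 FPKM in Nan/+ and 9.52 FPKM in WT livers in the authors' deposited table, a log2 fold change of -2.01 (q = 0.00244). Ampd3, an AMP deaminase of red cells, was at 4.93 FPKM in Nan/+ and 18.6 FPKM in WT livers in the authors' deposited table, with 2 such peaks that both carried ccCCAccc. The largest rises were in Cacna2d2, a calcium channel subunit, at 2.04 FPKM in Nan/+ and 0.180 FPKM in WT livers, and in 2600006L11Rik, at 41.1 FPKM in Nan/+ and 4.26 FPKM in WT livers, in the authors' deposited table. Shisa5, at 81.9 FPKM in Nan/+ and 12.8 FPKM in WT livers, and Prg3, a granule protein of eosinophils, at 11.8 FPKM in Nan/+ and 2.51 FPKM in WT livers in the authors' deposited table, were each assigned a peak whose summit lay outside their locus. Lst1, a leukocyte gene, was at 54.4 FPKM in Nan/+ and 12.6 FPKM in WT livers in the authors' deposited table, and its intronic peak had a fold of 49.3.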

How the data were processed

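The members and gene lists were chosen with earlier results of these data known. Only files the authors deposited were used: 1 annotated peak list per factor, 1 table of 4sU genes and 1 of liver genes. Per the submitters' processing notes, TopHat2 2.0.10, MACS 1.4.2 and build mm9 were used; neither the program behind expression levels nor that behind peak annotation is named in the sources used here. The authors deposited expression in FPKM, 1 value per group, with their log2 fold change, p-value and q value. Of the 4668 levels in the deposited 4sU table, 138 are exactly 0.1 FPKM and 7 are lower. No fold of a single gene is printed from a level of 0.1. The medians and the counts of risen and fallen genes do include such genes, with the authors' log2 fold changes. The fold of each peak is a ratio, ChIP over input, as deposited, and its rank is the authors' score within the list. Depth per sample is unknown.

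Overlaps, shares with 95% Wilson intervals, medians and counts were computed with Python 3.11.15, pandas 2.3.3 and SciPy 1.17.1, and checked on simulated data. Genes were joined by the name in the lists. With no value per sample, no model could be fitted, and no list was tested. Named genes were, per comparison, the 8 largest rises and 5 largest falls among genes that reach 1 FPKM in the higher group, called genes with 3 or more such peaks, called list genes, genes called in all 3 comparisons and genes of the 10 tallest peaks; Ampd3 and some list genes without a row were added after their values were seen. Nothing in the labels says that K1 replicates came from separate cultures or the livers from separate litters. A few genes are not reported here. Peak positions are printed as the lists give them. Alternatives changed the overlap rule, the fold, the q limit, the FPKM minimum, the pseudocount and the genes counted.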

Additional observations from a re-analysis of the deposited data

How the results depend on the processing

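Of 39 alternatives, 28 left the value within the set margin, 11 moved it and 0 reversed it. Keeping only KLF1 peaks at or above the list's median fold left 672 KLF1-only intronic peaks, 84.1% with a motif and a median fold of 111. At a q of at most 0.01, 6 genes fell in K1-ER and 18 in K1-NanER, and 19 rose and 17 fell in Nan/+ liver. Genes with no other peak of either factor numbered 35 that rose in K1-ER, 41 that rose in K1-NanER, and 19 that rose and 16 that fell in Nan/+ liver; fewer genes enter these counts by construction. Requiring an overlap of at least 0.5 of the KLF1 peak gave 1657 peaks, and a gap of up to 1000 bp counted as shared gave 1515. No paired analysis was possible because the tables give 1 value per group. With 1 library per factor and no counts, neither replicate spread nor depth can be given.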
